A study of Mus musculus with 6 samples.

Results

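The genes described here encode the nuclear subunits of the 5 complexes of oxidative phosphorylation. They were taken by symbol from the platform annotation: Ndufa, Ndufb, Ndufc, Ndufs and Ndufv genes for complex I, Sdha to Sdhd for complex II, Uqcr genes for complex III, Cox4i to Cox8 genes for complex IV and Atp5 genes for complex V. The assembly factors named Ndufaf were not counted. These symbols gave 82 of the 18193 genes represented on the array, of which 36 belonged to complex I, 4 to complex II, 8 to complex III, 17 to complex IV and 17 to complex V. Each gene was read from 1 probe set, the brightest over the 6 arrays among those annotated with a single symbol. The reactive group was 3 arrays of eGFP-positive cells from lesioned grey matter of the somatosensory cortex of GFAP-eGFP mice (TgN(hGFAP-EGFP) GFEA), taken 5 days after a stab wound of the right hemisphere. The non-reactive group was 3 arrays of eGFP-positive cells from the same region of uninjured Aldh1L1-eGFP mice (Tg(Aldh1l1-eGFP)OFC789Gsat). All mice were FVB/N, 2 to 3 months old and of undetermined sex, and each array held cells pooled from about 15 animals. Every injured array carries the GFAP reporter and every uninjured array the Aldh1l1 reporter, so wound and reporter line cannot be told apart. The labels also describe BrdU given to label dividing cells, without stating whether these animals received it.

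Oxidative phosphorylation is carried out in the inner mitochondrial membrane. Complex I takes electrons from NADH and complex II from succinate, complex III passes them through cytochrome c to complex IV, which reduces oxygen, and the proton gradient that results drives complex V, the ATP synthase. Most subunits are encoded in the nucleus and a small set of catalytic ones in mitochondrial DNA. Astrocytes are known for a high rate of glycolysis and also hold a working respiratory chain.

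No subunit passed the test at its probe set with a single symbol. Of the 82 genes 0 were called (limma, Benjamini-Hochberg over 45037 probe sets, threshold 0.05), where 0.951% of all genes were called, and the smallest adjusted p among the subunits was 0.0753. At an unadjusted p under 0.05 there were 20 subunits, of which 17 were higher and 3 lower in reactive cells, that is 20.7% and 3.66% of the subunits, beside 7.88% and 7.13% of all genes. The log2 difference, reactive minus non-reactive, was above 0 for 61 of 82 subunits, or 74.4%, beside 60.7% of all genes. The median difference was 0.22 for the subunits and 0.12 for all genes, and its range over the subunits ran from -0.86 for Ndufa10 to 1.97 for Cox7a1. The 3 reactive arrays all lay above the 3 non-reactive arrays for 34 subunits and all below them for 5, beside 13.5% and 8.2% of all genes. The excess of the subunits' median over that of all genes depended on the scaling: it was 0.11 on the deposited values and 0.01 after a further quantile normalisation, which gave 54 of 82 subunits above 0.

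**Figure D1:**
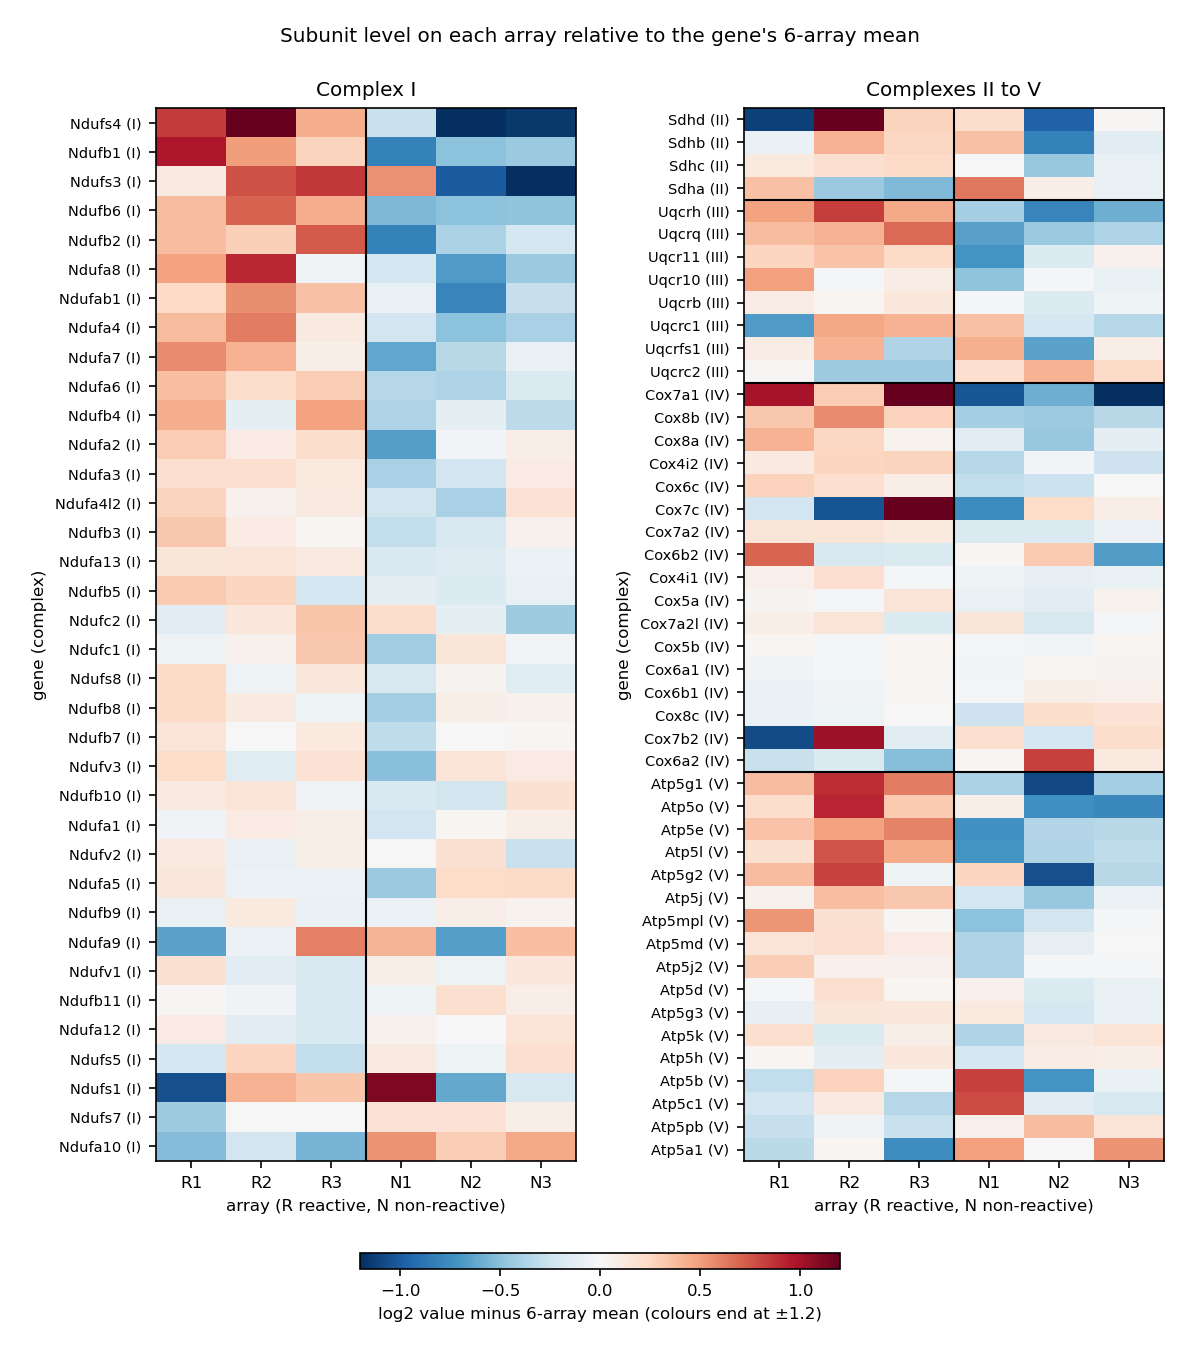
Log2 value of each subunit on each array minus that gene's mean over the 6 arrays, with reactive arrays R1 to R3 left of non-reactive arrays N1 to N3 and genes ordered within each complex by their difference. In 13 of the 36 complex I genes all reactive arrays lie above all non-reactive arrays, beside 13.5% of all genes. Ndufa10 and Ndufs7 show the opposite, and Cox5b, Cox6a1 and Cox6b1 are nearly white throughout.

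The median subunit stood at 0.14, 0.15 and 0.10 above its own 6-array mean on reactive arrays 1, 2 and 3, against -0.18, -0.16 and -0.06 on non-reactive arrays 1, 2 and 3. The median of all genes moved the same way by less, at 0.06, 0.02 and 0.03 on the reactive and -0.07, -0.08 and -0.02 on the non-reactive arrays. By complex, the median log2 difference was 0.21 for complex I, 0.37 for complex II, 0.27 for complex III, 0.16 for complex IV and 0.27 for complex V. Complex II, with 4 genes, ranged from 0.05 to 0.56 when single arrays were left out and was -0.01 with the second-brightest probe set of each gene. The medians of complexes I, III, IV and V were above 0 in all alternatives run, and so was the median of all genes. After a further quantile normalisation complex I gave 0.0961, beside 0.0953 for all genes. With cyclic loess the median of complex IV lay below that of all genes.

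Cell type markers differed between the groups. Of 12 astrocyte markers 7 fell and Gfap, the astrocyte filament gene, rose in reactive cells (limma), and all 11 others had the reactive arrays below the non-reactive arrays. Their summed linear signal was 18765 to 20833 on the reactive and 39860 to 48356 on the non-reactive arrays. Among 14 markers of microglia and macrophages, 6 passed with higher values in reactive cells and 0 with lower ones (limma). Their summed signal was 22931 to 33729 on the reactive and 8004 to 8607 on the non-reactive arrays. Of 8 blood leukocyte markers 3 rose and 0 fell (limma), and their summed signal was 2523 to 5136 on the reactive and 246 to 403 on the non-reactive arrays. Those called were Lyz2, Cd52 and Plac8, by 5.67, 3.52 and 3.31, and Lyz2 and Cd52 carried most of the reactive sums. The rest did not pass: S100a8 and S100a9 differed by 1.40 and 0.71, and Cd3e, Cd3d and Ccr2 by 0.15, 0.03 and -0.03. That of 10 oligodendrocyte lineage markers was 23648 to 25104 against 20174 to 25408, that of 10 neuronal markers 4243 to 10401 against 7152 to 10768, and that of 9 endothelial and mural markers 303 to 1399 against 565 to 1095, with 0 calls in these 3 lists (limma). The overlapping oligodendrocyte sums are carried by Mbp, whose difference was -0.49: 9 of the 10 markers lay above 0 with a median of 0.91, and 4 were higher (Cldn11, Mog, Mag and Cnp, by 1.04 to 3.02) and 1 lower at an unadjusted p under 0.05. At that p 1 neuronal marker was higher, and 2 endothelial and mural markers were lower. No marker was at 0. The marker calls, like those of all genes, were lost when any 1 non-reactive array was left out or replicate numbers were blocked. The control probe sets that are read for RNA quality differed too. For Gapdh, actin and pyruvate carboxylase the 3′ minus 5′ difference was lower on every reactive than on every non-reactive array, and for 18S rRNA it was higher. The 3′ minus 5′ log2 difference of the control probe sets averaged 4.17 on the reactive and 5.19 on the non-reactive arrays for Gapdh, 3.38 against 5.05 for actin, 1.44 against 3.46 for pyruvate carboxylase and 0.83 against -1.15 for 18S rRNA. The part of the cell types and of RNA quality in the subunits' differences was not tested. In such bulk samples fewer cells of a type and less RNA per cell cannot be told apart.

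Complex I is built from a catalytic core and many accessory subunits around it. Ndufb6, an accessory subunit of the membrane arm, measured 11.50, 11.84 and 11.56 (log2) on the reactive and 10.59, 10.64 and 10.65 on the non-reactive arrays. The groups did not overlap, and the reactive arrays were all higher. The log2 difference was 1.01 (SE 0.19, limma adjusted p = 0.0835). Ndufs4, an accessory subunit of the NADH-oxidising arm whose loss in mice gives a Leigh-like encephalopathy, measured 9.67, 10.38 and 9.27 on the reactive and 8.57, 7.44 and 7.67 on the non-reactive arrays. Its groups did not overlap either, and both were more scattered, with a difference of 1.88 (SE 0.41, limma adjusted p = 0.11). Another probe set of Ndufs4 gave 0.36, so the size rests on the probe set. Ndufb1, also of the membrane arm, measured 7.42, 6.95 and 6.71 on the reactive against 5.63, 5.95 and 6.00 on the non-reactive arrays, a difference of 1.16 (limma adjusted p = 0.114).

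Of the 36 complex I genes, 9 (25%) were higher and 1 (2.78%) lower at an unadjusted p under 0.05, beside 7.88% and 7.13% of all genes. After adjustment 0 of the 36 passed (limma), beside 0.951% of all genes. The other higher ones were Ndufa4, Ndufa6, Ndufa7, Ndufa8, Ndufab1 and Ndufb2, with differences of 0.59 to 0.93. Ndufab1 encodes the mitochondrial acyl carrier protein and differed by 0.77 at its brightest and -0.13 at its second-brightest probe set, and Ndufa4 has since been assigned to complex IV. The exception was Ndufa10, an accessory subunit of the membrane arm named here after its values were seen. It measured 10.03, 10.33 and 9.98 on the reactive and 11.09, 10.84 and 11 on the non-reactive arrays. The reactive arrays were all lower, by 0.86 (SE 0.20, limma adjusted p = 0.131), and the other probe set of Ndufa10 differed by 0.03. Ndufa13 and Ndufa1, named for the highest probe set means of the complex, differed by 0.27 and 0.08, and the sign of Ndufa1 turned under other scalings. Ndufa4l2, a hypoxia-inducible paralogue of Ndufa4, differed by 0.29 (95% interval -0.24 to 0.82). The Ndufb4 probe set with a single symbol had a mean of 3.56, below the median of 4.74 over all probe set means, so its difference of 0.53 is that of a dim probe set.

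Of the 6 core subunits of complex I measured here, 3 lay above 0 and 3 below. Of those that hold iron-sulphur clusters, Ndufs1, Ndufv1, Ndufs7, Ndufv2 and Ndufs8 differed by -0.21, -0.09, -0.29, 0.06 and 0.20. The second-brightest probe set of Ndufs7 gave 0.68 with all reactive arrays higher, so its side of 0 depends on the probe set. Those of Ndufv1, Ndufv2 and Ndufs8 gave -0.28, 0.16 and 0.22, and dimmer probe sets gave up to 0.97 for Ndufv2 and 0.94 for Ndufs8. Ndufs3 differed by 1.15 with a 95% interval of -0.06 to 2.35: it measured 9.25, 9.90 and 9.99 on the reactive against 9.69, 8.14 and 7.87 on the non-reactive arrays, and the first non-reactive array lay inside the reactive range. The core subunits of complexes I and III and the F1 subunits of complex V were put in 1 set, a grouping by textbook role made after the values were seen. At their brightest probe sets 7 of 14 lay above 0 with a median of 0.02. Of the 47 other subunits of these complexes 39 lay above 0 with a median of 0.29. At an unadjusted p under 0.05 the first set had 1 higher (7.14%) and 2 lower (14.3%). The second had 14 higher (29.8%) and 1 lower (2.13%). Of all genes 7.88% were higher and 7.13% lower at that p, and 60.7% lay above 0. The difference between the sets was not tested.

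**Figure D2:**
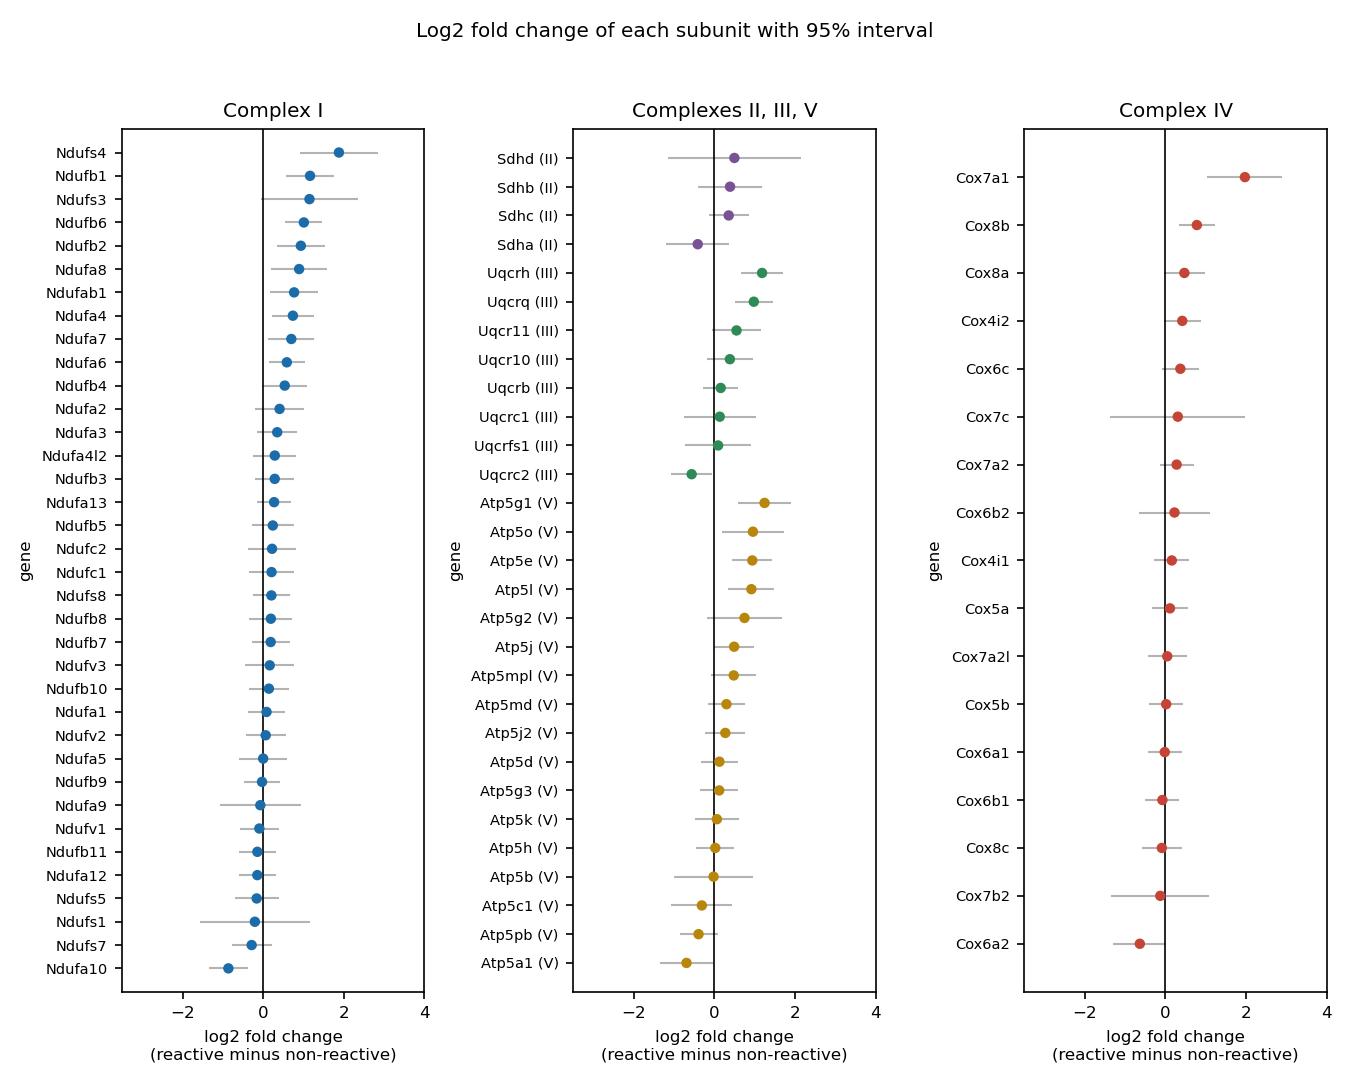
Log2 difference of each subunit (reactive minus non-reactive, points) with its 95% interval from limma (bars), by complex. Cox7a1, at 1.97, and Ndufs4, at 1.88, lie farthest to the right and Ndufa10, at -0.86, farthest to the left, and 0 of the 82 genes passed the adjusted test.

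Complex II, which is also succinate dehydrogenase of the citric acid cycle, had 0 of 4 genes past an unadjusted p of 0.05 or the adjusted threshold (limma). Sdha, its flavoprotein, measured 10.82, 10.02 and 9.94 on the reactive against 11.10, 10.54 and 10.38 on the non-reactive arrays, a difference of -0.41 (95% interval -1.19 to 0.37), and reactive array 1 lay inside the non-reactive range. The second-brightest Sdha probe set gave -0.90. Sdhb, the iron-sulphur subunit, differed by 0.39 with overlapping groups. Of the membrane anchors, Sdhc differed by 0.36 with reactive arrays all higher and Sdhd by 0.50 (SE 0.69). Sdhd measured 7.30, 10.01 and 8.68 on the reactive and 8.63, 7.44 and 8.43 on the non-reactive arrays, so the reactive arrays spanned the whole range of values, and without reactive replicate 2 its difference was -0.18.

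Complex III held the smallest adjusted p. Uqcrh, the hinge protein next to cytochrome c1, measured 12.43, 12.78 and 12.40 on the reactive and 11.55, 11.15 and 11.36 on the non-reactive arrays. All reactive arrays were higher, by 1.19 (SE 0.22, 95% interval 0.67 to 1.70), a 2.27-fold difference with a limma adjusted p of 0.0753. The second-brightest Uqcrh probe set gave 0.54, a 1.46-fold difference, again with all reactive arrays higher. Uqcrq, a small subunit, measured 12.83, 12.88 and 13.14 on the reactive and 11.81, 12.01 and 12.08 on the non-reactive arrays, again without overlap, with a difference of 0.98 (SE 0.20, limma adjusted p = 0.0996). Both were called when the variance was modelled with an intensity trend (limma adjusted p = 0.0425 for each) and in no other alternative. The other small subunits Uqcr11, Uqcr10 and Uqcrb differed by 0.55, 0.39 and 0.16, and the reactive arrays were above the non-reactive ones for all 5 small subunits. Among the larger subunits, the core protein Uqcrc2 measured 10.88, 10.44 and 10.43 on the reactive and 11.07, 11.28 and 11.09 on the non-reactive arrays, a difference of -0.56 (SE 0.22, limma adjusted p = 0.341). Uqcrc1 differed by 0.14 and Uqcrfs1, the Rieske iron-sulphur protein, by 0.09, both with overlap. Cyc1, cytochrome c1 of the same complex, is outside the symbol rule and differed by -0.62 (SE 0.25, limma adjusted p = 0.367).

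Complex IV carried the largest single difference. Cox7a1, the isoform of subunit VIIa known from heart and skeletal muscle, measured 8.37, 7.68 and 9.04 on the reactive and 6.35, 6.79 and 6.04 on the non-reactive arrays. The groups did not overlap, the log2 difference was 1.97 (SE 0.39, 95% interval 1.04 to 2.90), and the limma adjusted p was 0.0915. Its general counterpart Cox7a2 measured 13.88, 13.88 and 13.85 on the reactive and 13.56, 13.56 and 13.67 on the non-reactive arrays, a difference of 0.28 (SE 0.18), and its second probe set gave 1.00. Cox7a2l, a related gene linked to supercomplex assembly, differed by 0.05 and changed sign with the scaling, at -0.05 after a further quantile normalisation and -0.02 with cyclic loess. Cox8b, the muscle isoform of subunit VIII, measured 5.41, 5.66 and 5.37 on the reactive against 4.69, 4.66 and 4.76 on the non-reactive arrays, a difference of 0.78 (SE 0.19, limma adjusted p = 0.146). Its non-reactive mean of 4.70 lay just below 4.74, the median over all probe sets, so this difference starts from a dim signal.

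The remaining isoform pairs of complex IV did not follow a common direction. Cox6a2, the muscle isoform of subunit VIa, measured 7.72, 7.81 and 7.48 on the reactive and 8.01, 8.81 and 8.10 on the non-reactive arrays, a difference of -0.64 (SE 0.27, limma adjusted p = 0.389). Its general counterpart Cox6a1 differed by -0.02 at its brightest probe set and by 0.84 at the other. Cox4i2, the isoform induced by low oxygen and known from lung and from mural cells of vessels, differed by 0.42 (95% interval -0.04 to 0.88), and Cox4i1 by 0.16 (95% interval -0.28 to 0.59). Beside these, the mural markers Pdgfrb and Rgs5 differed by -2.24 and -0.98 and Kcnj8 and Acta2 by 0.40 and 1.36, none of which passed (limma). Acta2 measured 5.39, 5.28 and 8.63 on the reactive arrays, so its difference rests on reactive array 3. The part of mural cells was not tested. Cox8a differed by 0.47, Cox8c, known from testis, by -0.09, Cox6b1 by -0.08 and Cox6b2 by 0.23. Cox5b differed by 0.02 and by -0.11 with cyclic loess. Cox7c was read only by dim probe sets, at a mean of 4.22, and its reactive SD was 1.42. The mitochondrially encoded gene ND5, a complex I subunit outside the rule, measured 13.30, 13.42 and 12.96 on the reactive and 13.51, 13.50 and 13.58 on the non-reactive arrays, a difference of -0.30 (SE 0.20, limma adjusted p = 0.563).

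Complex V was described by its parts. In the F1 head, Atp5e, the epsilon subunit, measured 12.03, 12.17 and 12.28 on the reactive and 10.96, 11.33 and 11.35 on the non-reactive arrays, a difference of 0.94 (SE 0.21, limma adjusted p = 0.118) without overlap. The alpha subunit Atp5a1 measured 11.60, 11.95 and 11.18 on the reactive and 12.41, 11.93 and 12.46 on the non-reactive arrays, a difference of -0.69 (SE 0.28, limma adjusted p = 0.363), with 1 array of each group inside the other's range. The catalytic beta subunit Atp5b differed by -0.02 (95% interval -0.99 to 0.95), the gamma subunit Atp5c1 by -0.31 and the delta subunit Atp5d by 0.13.

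In the membrane part, the c ring is encoded by Atp5g1, Atp5g2 and Atp5g3, which specify the same mature protein behind different import sequences. Atp5g1 measured 9.73, 10.25 and 9.98 on the reactive and 8.98, 8.28 and 8.96 on the non-reactive arrays, all reactive arrays higher, by 1.25 (SE 0.28, limma adjusted p = 0.118). Atp5g2 differed by 0.75 (95% interval -0.19 to 1.69) with overlap, and Atp5g3 by 0.12 (95% interval -0.36 to 0.60). The supernumerary subunit Atp5l measured 10.62, 11.19 and 10.87 on the reactive against 9.72, 10.08 and 10.12 on the non-reactive arrays, a difference of 0.92 (SE 0.24, limma adjusted p = 0.17). Its neighbours Atp5mpl, Atp5md, Atp5j2 and Atp5k differed by 0.48, 0.30, 0.27 and 0.06. In the peripheral stalk, Atp5o, which confers oligomycin sensitivity, differed by 0.96 (SE 0.32), Atp5j by 0.49, Atp5h by 0.02 and Atp5pb, subunit b, by -0.39. The last had reactive arrays all lower, while its second probe set gave 0.97.

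**Figure D3:**
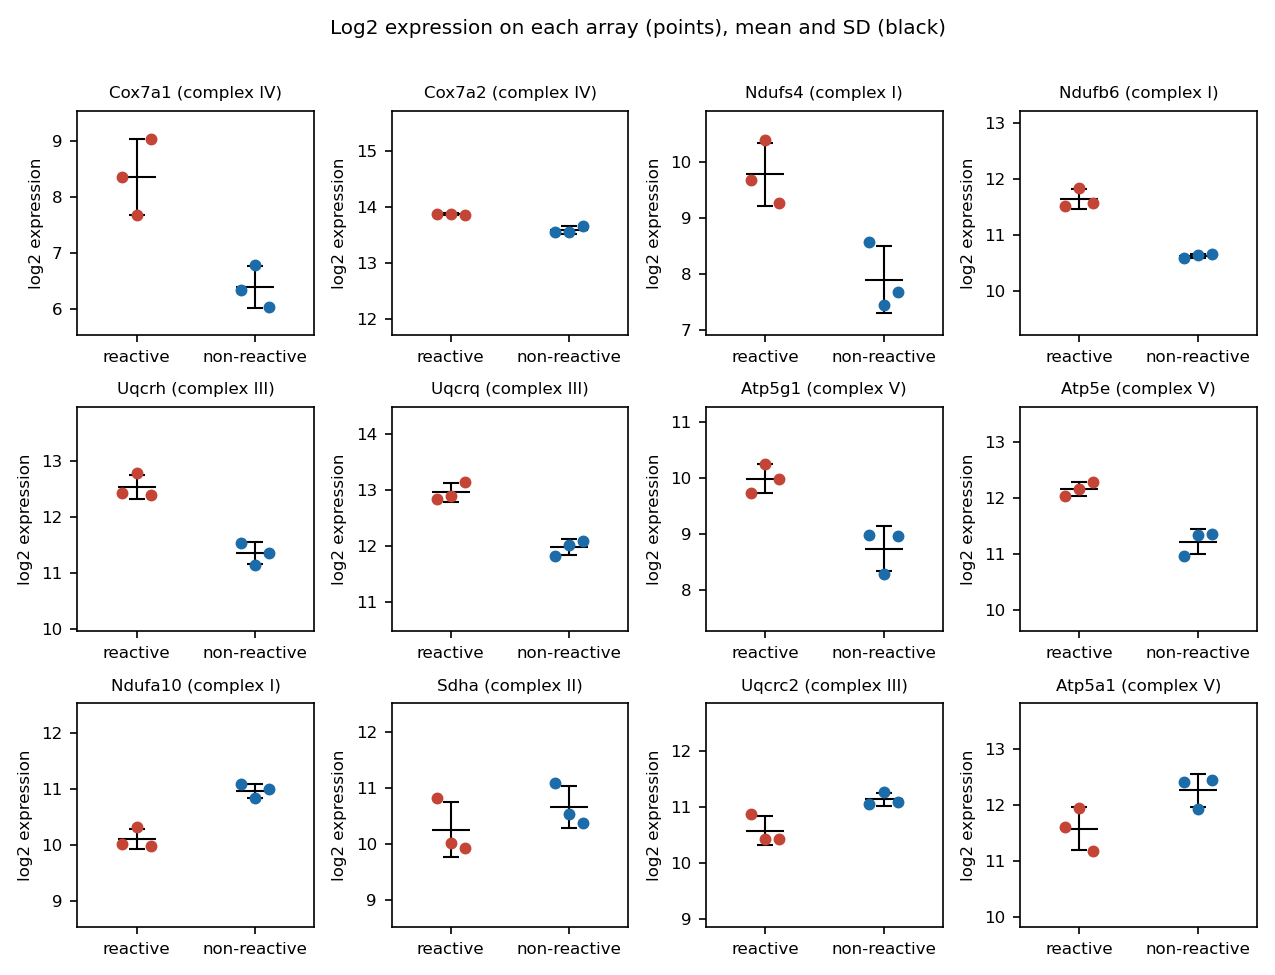
Log2 expression of 12 subunits on each array (points), with the group mean and SD in black (n = 3 each), reactive left of non-reactive; each axis spans 4 log2 units. Ndufs4, Ndufb6, Uqcrh, Uqcrq, Atp5g1, Atp5e and Cox7a1 show separate groups with reactive higher, Ndufa10 and Uqcrc2 separate groups with reactive lower, and Sdha and Atp5a1 overlapping groups.

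The difference assigned to a subunit depended on its probe set. A second probe set with 1 symbol and a mean above 4.74 was present for 45 of the 82 genes. For these the median log2 difference was 0.13 at the brightest and 0.33 at the second-brightest probe set, and the second gave the larger value in 26 of 45. At an unadjusted p under 0.05, 8 brightest probe sets were higher, against 17 second-brightest ones, with 0 past the adjusted threshold in either case (limma). Of all genes 7.88% were higher at the brightest probe set, and 7.78% with the second-brightest where its mean was above 4.74. Uqcrb differed by 0.16 at a probe set with a mean of 14.02 and by 1.45 at one with a mean of 10.37. Ndufb5 gave 0.24 and 1.62, Atp5h 0.02 and 1.18, and Ndufc1 0.21 and 1.07. The opposite order was seen for Ndufs4, with 1.88 and 0.36, Atp5o, with 0.96 and 0.09, and Atp5c1, with -0.31 and -1.73. The sign differed between both probe sets for 12 of the 45 genes. Of the 14 subunits whose probe set had a mean above 13, where the array maxima were 14.68 to 14.73, 10 had such a second probe set. Their median was 0.11 at the first and 0.60 at the second. When probe sets ending in _x_at, _s_at or _a_at were removed, which can read several transcripts or genes, 66 subunits remained, with a median of 0.51 against 0.12 for all genes. Of these, 53 lay above 0 and 0 passed (limma), with 26 higher and 3 lower at an unadjusted p under 0.05. Of the 16591 genes in that setting 61.7% lay above 0 and 146 passed (limma), with 7.53% higher and 6.76% lower at that p.

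**Figure D4:**
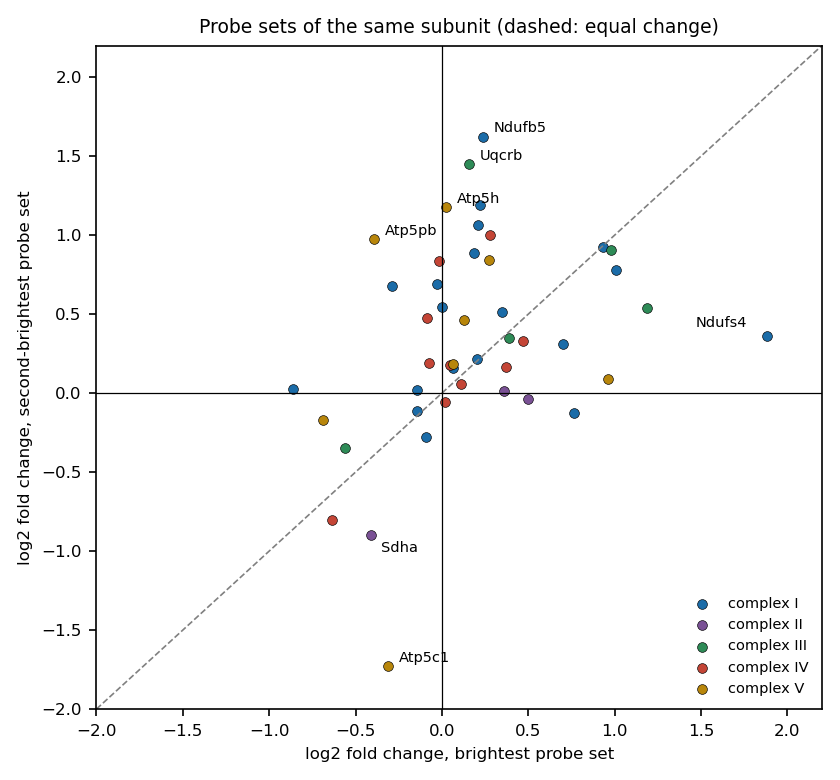
Log2 difference (reactive minus non-reactive) at the second-brightest against the brightest probe set of the 45 subunits that have both, coloured by complex, with a dashed line of equal change. Points such as Ndufb5 and Uqcrb lie far above the line, near 0 on the horizontal axis, and Ndufs4 and Atp5c1 lie below it.

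**Figure D5:**
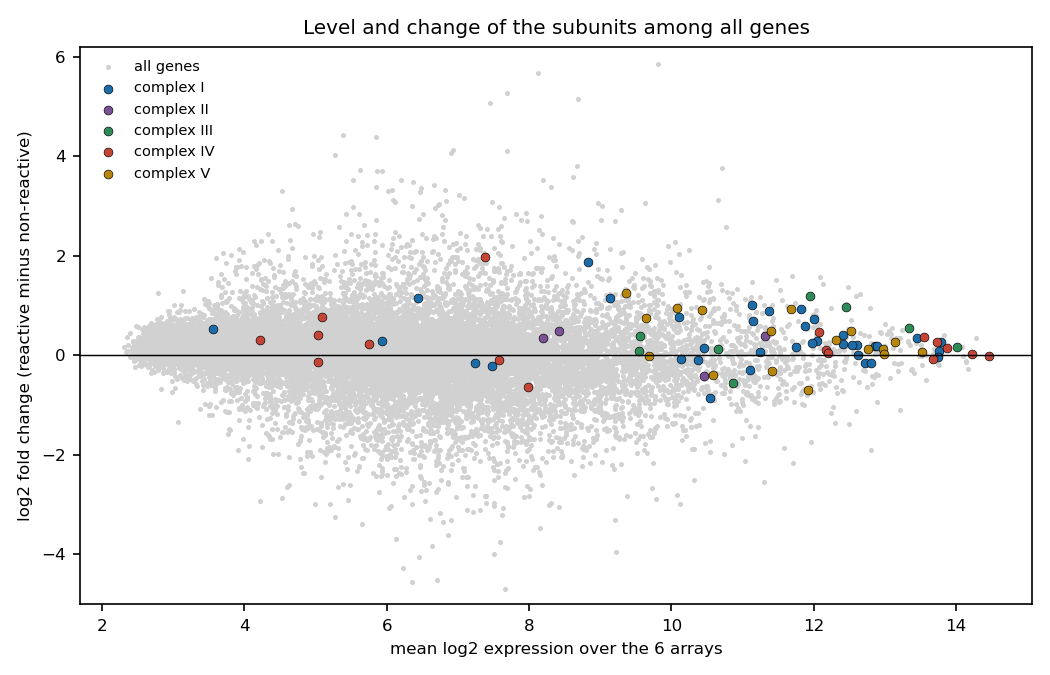
Log2 difference (reactive minus non-reactive) against the mean log2 value over the 6 arrays, for 82 subunits coloured by complex and 18193 genes in grey. The subunits lie between -0.86 and 1.97, and the 14 with a mean above 13 lie between -0.08 and 0.55.

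Subunits of similar brightness can be set beside genes of that brightness. Among probe sets with a mean of 11 to 13, 9 of 35 subunits (25.7%) were higher and 1 (2.86%) lower at an unadjusted p under 0.05, beside 48 and 65 of the 370 genes in that range. The medians there were 0.22 for the subunits and 0.01 for all genes. Above 13, the medians were 0.16 for 14 subunits and 0.13 for 62 genes.

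Promoters of nuclear respiratory genes are known to bind NRF1, YY1, ETS factors such as GABP, and oestrogen-related receptors. RefSeq promoters (build GRCm38.p6, 250 bases before to 50 after the start) were matched for 67 of 82 subunit genes, with 72 promoters. On either strand, the NRF1 consensus stood in 22.2% of these promoters and in 4.60% of all 32851 promoters. The YY1 letters AAGATGGCG stood in 8.33% against 1.40%, the ETS letters CCGGAAGT in 6.94% against 3.89% and the oestrogen-related receptor letters TCAAGGTCA in 2.78% against 0.42%. None of these motifs contains another, and a match describes the letters, not a bound site. The 15 genes with the NRF1 consensus had a median log2 difference of 0.12 (-0.41 to 0.96), and the 52 without had 0.26 (-0.86 to 1.97). For the other motifs the median was 0.55 in 5 genes with the ETS letters and 0.21 without, 0.24 in 6 genes with the YY1 letters and 0.23 without, and 0.31 in 2 genes with the oestrogen-related receptor letters and 0.23 without. The promoters below show the gene with the largest difference and 3 genes, higher at an unadjusted p under 0.05, that hold different motifs. These 3 were picked for their motifs. Of the other subunits higher at that p with a matched promoter, Ndufa6 and Atp5o held the NRF1 consensus. Ndufb6, Ndufb1, Atp5g1, Atp5e, Cox8b, Atp5l, Ndufb2, Ndufa4, Ndufab1 and Ndufa7 held none of the 4 motifs, nor did Cox7a1. Capitals mark the motif: the NRF1 consensus, on the reverse strand, starts 30 bases before the start of Ndufa8 (chr2:36049289-36049588, minus strand), the ETS letters, on the reverse strand, 11 bases before that of Uqcrh (chr4:116075021-116075320, minus strand) and the YY1 letters at base 36 after that of Ndufs4 (chr13:114388045-114388344, minus strand). The Cox7a1 window (chr7:30183921-30184220, plus strand) held none of the 4.
Cox7a1: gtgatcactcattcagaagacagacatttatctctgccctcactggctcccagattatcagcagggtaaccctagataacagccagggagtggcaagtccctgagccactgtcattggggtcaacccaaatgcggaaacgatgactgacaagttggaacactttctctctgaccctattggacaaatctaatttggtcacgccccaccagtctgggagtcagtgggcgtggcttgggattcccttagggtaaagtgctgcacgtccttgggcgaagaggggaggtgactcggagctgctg
Ndufa8: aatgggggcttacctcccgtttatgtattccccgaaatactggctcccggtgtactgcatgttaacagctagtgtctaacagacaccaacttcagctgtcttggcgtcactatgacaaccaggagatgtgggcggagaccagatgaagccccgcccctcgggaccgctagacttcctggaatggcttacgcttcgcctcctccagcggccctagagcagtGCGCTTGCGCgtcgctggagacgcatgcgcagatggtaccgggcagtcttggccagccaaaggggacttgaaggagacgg
Uqcrh: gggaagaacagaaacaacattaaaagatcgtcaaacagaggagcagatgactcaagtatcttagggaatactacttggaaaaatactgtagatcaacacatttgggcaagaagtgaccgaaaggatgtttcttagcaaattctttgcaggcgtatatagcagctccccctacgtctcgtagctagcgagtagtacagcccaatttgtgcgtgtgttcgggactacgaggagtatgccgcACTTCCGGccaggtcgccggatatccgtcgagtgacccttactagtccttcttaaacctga
Ndufs4: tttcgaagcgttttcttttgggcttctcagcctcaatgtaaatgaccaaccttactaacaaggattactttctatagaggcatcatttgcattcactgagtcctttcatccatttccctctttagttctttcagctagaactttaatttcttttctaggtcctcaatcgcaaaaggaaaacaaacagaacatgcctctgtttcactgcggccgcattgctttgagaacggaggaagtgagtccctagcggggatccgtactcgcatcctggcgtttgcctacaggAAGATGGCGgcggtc

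Genes that build and feed the chain were read from lists. Beside them, 7.88% of all genes were higher and 7.13% lower at an unadjusted p under 0.05 (limma), and 0.951% passed. Of 43 measured assembly factors 0 passed (limma), with 7 (16.3%) higher and 1 (2.33%) lower at an unadjusted p under 0.05. Their median log2 difference was 0.21. Uqcc2, an assembly factor of complex III, measured 13.15, 13.13 and 13.32 on the reactive and 11.80, 12.17 and 12.04 on the non-reactive arrays, a difference of 1.20 (SE 0.20, limma adjusted p = 0.0601) without overlap. It was called with an intensity trend (limma adjusted p = 0.0235). Cox16, an assembly factor of complex IV, differed by 1.65 (SE 0.29, limma adjusted p = 0.0675). Of 21 electron carriers and linked enzymes 0 passed (limma), with 2 (9.52%) higher and 6 (28.6%) lower at an unadjusted p under 0.05. Gpd2, the mitochondrial glycerol phosphate dehydrogenase, differed by -1.50 and Dhodh, a pyrimidine synthesis enzyme that reduces ubiquinone, by 0.90.

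The citric acid cycle and pyruvate genes had the opposite median, -0.46 over 18 genes. At an unadjusted p under 0.05, 0 were higher and 4 (22.2%) lower, beside 7.88% and 7.13% of all genes. Pcx, pyruvate carboxylase, a known astrocyte enzyme, passed: it measured 6.66, 7.08 and 7.30 on the reactive and 8.52, 8.73 and 9.04 on the non-reactive arrays and fell by 1.74 on the log2 scale (SE 0.26, limma adjusted p = 0.0462). Its call was lost without any 1 of the 6 arrays (limma adjusted p of 0.0635 to 0.166) and when replicate numbers were blocked (0.124). Cs, citrate synthase, named after its values were seen, measured 11.32, 11.47 and 11.28 on the reactive and 12.36, 12.26 and 12.36 on the non-reactive arrays, a difference of -0.97 (SE 0.18, limma adjusted p = 0.0808). Of 18 regulators of mitochondrial biogenesis 0 passed (limma), with 3 (16.7%) higher and 2 (11.1%) lower at an unadjusted p under 0.05. Yy1 differed by 1.21 at its brightest and -1.24 at its second-brightest probe set, and Gabpa by -1.62 (SE 0.39) at a dim probe set with a mean of 4.34. Ppargc1a, the coactivator PGC-1alpha, named after its values were seen, measured 6.72, 6.59 and 4.13 on the reactive and 8.34, 8.80 and 8.70 on the non-reactive arrays, a difference of -2.80 (SE 0.68, limma adjusted p = 0.146). The part of the cell type markers given above in these differences was not tested.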

How the data were processed

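Gene expression was read from 6 arrays of sorted cells, 3 reactive and 3 non-reactive. The deposited values are log2 expression values per probe set that the authors made with RMA, per the submitters' processing notes, with no version or setting given in the labels. RMA usually equalises the distributions of the arrays, and the array medians lay between 4.65 and 4.73. RNA was amplified in 2 rounds and biotin-labelled, per the labels' protocols.

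Of 45101 probe sets the 64 controls were left out. All 45037 others were fitted on the 6 arrays with lmFit and eBayes (limma 3.58.1, R 4.3.3), without covariates, two-sided, with Benjamini-Hochberg adjustment over them and a threshold of 0.05. The error given with a log2 difference is limma's moderated SE, with intervals at 95% confidence. The platform annotation gave 1 symbol for 34945 probe sets, and no gene was named from the 932 with several. Levels of different probe sets were compared only as brightness, to choose, rank and group probe sets and to sum markers. The number of arrays limits the precision. The labels call the arrays biological replicates, each a pool of animals.

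Members, lists and tests were chosen with earlier results of these data known. Named were subunits past the threshold, per complex the 3 with the smallest p, the 2 with the largest difference and the 2 with the highest mean, the isoform groups, and for each list its called genes or else the 2 with the smallest p. Other subunits and genes were named for their place in a complex or after seeing their values. The alternatives were other scalings, variance models, array weights, filters, probe set rules, a replicate block and each array left out. Figures were drawn with matplotlib 3.10.9.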

Additional observations from a re-analysis of the deposited data

Results flagged for a closer look

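Outside the comparison stood 10 probe sets annotated with several symbols, at least 1 of which meets the symbol rule. Of these, 1 passed the threshold, with a signal above that of the uninjured arrays. It measured 11.95, 12.28 and 12.12 on the reactive and 10.76, 10.61 and 10.41 on the non-reactive arrays, and it rose by 1.52 on the log2 scale (SE 0.21, limma adjusted p = 0.0388). No gene is named from it because its annotation lists more than 1 symbol, but all of these symbols meet the complex I rule. Another probe set with the same symbols differed by 1.01 (SE 0.18, limma adjusted p = 0.0753), with all reactive arrays higher. The remaining ones differed by -0.02, 0.04, 0.32, 0.55, 0.66, 0.74, 0.78 and 0.89. At an unadjusted p under 0.05 (limma) those at 0.55, 0.66, 0.74 and 0.89 were higher and none was lower. The probe set at 0.55 was dim, with a mean of 4.04. Of all genes 7.88% were higher and 7.13% lower at that p.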

How the results depend on the processing

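The count of called subunits (limma) was 0 in every alternative run except eBayes with a trend, which called 2, Uqcrh and Uqcrq. At an unadjusted p under 0.05 it was 7 in a test against a 1.5-fold change and 14 to 29 in the others. The number of all genes called was 173, against 14 in the test against a 1.5-fold change, 0 with the replicate block and 0 to 77 with single arrays left out: 20, 74 and 77 without reactive replicate 1, 2 or 3 and 0 without any 1 of the non-reactive replicates. In those with 0, limma gave 1909 to 2401 genes at an unadjusted p under 0.05. The replicate block left the subunits at 0 called, with 15 at an unadjusted p under 0.05. Arrays of the same replicate number share only that number: their deviations from the group means correlated at -0.07, -0.11 and 0.04 for numbers 1, 2 and 3.

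The median log2 difference of all subunits, 0.22, was 0.11 after a further quantile normalisation, 0.15 with cyclic loess, 0.30 with probe sets averaged per gene, 0.51 without _x_at, _s_at and _a_at probe sets and 0.32 with the second-brightest probe set, an alternative chosen after seeing the data. The median of all genes was 0.10, 0.06, 0.12, 0.12 and 0.13 in these. With single arrays left out the subunit median was 0.23 to 0.28 and that of complex V 0.20 to 0.33. In the order of these 5 settings, complex I gave 0.10, 0.14, 0.39, 0.68 and 0.34, and complex IV 0.10, 0.0489, 0.25, 0.35 and 0.23. Complex V gave 0.12 and 0.18 with the first 2 settings, and 0.39 and 0.48 with the last 2. Complex III gave 0.53, 0.70 and 0.45 with the last 3, and complex II -0.012 with the second-brightest probe set. Without subunits above a mean of 13, also chosen after seeing the data, complex IV gave 0.23. The cause of these shifts was not tested.

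Some named genes changed sign, most of them close to 0. After a further quantile normalisation Ndufa1 differed by -0.0091, Atp5k by -0.0756, Cox7a2l by -0.0529 and Atp5g3 by -0.0202. With cyclic loess Ndufa1 differed by -0.0289, Cox5b by -0.11, Atp5k by -0.0409 and Cox7a2l by -0.0195. With the mean of probe sets Cox6a1 differed by 0.41, Cox6b1 by 0.0585, Cox7a2l by -0.0212 and Cox8c by 0.19. Without _x_at, _s_at and _a_at probe sets Atp5g1 differed by -0.20, at a dim probe set, and Cox6b1 by 0.19. With the second-brightest probe set Sdhd differed by -0.0373, Cox6a1 by 0.84, Cox5b by -0.057, Cox6b1 by 0.19, Cox8c by 0.48 and Yy1 by -1.24. With single arrays left out, Ndufa1 ran from -0.0117 to 0.15, Sdhd from -0.18 to 1.18, Atp5k from -0.10 to 0.16, Cox6b2 from -0.0675 to 0.44 and Cox7a2l from -0.0385 to 0.14. The adjusted p of Pcx was 0.0557, 0.0593, 0.0757 and 0.0501 with a further quantile normalisation, cyclic loess, a trend and robust eBayes.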
